A study of Mus musculus with 12 samples.

Results

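The transcription factor genes Emx2, Wt1, Foxl2, Gata2, Gata6, Tcf21, Nr2f1, Nr2f2 and Meis1 are known from the mesenchyme of the Müllerian duct, the embryonic tube that forms the uterus, and from the uterine stroma that develops from it. These 9 genes were taken by name from the 47729 genes of the deposited count table, and all 9 were found. RNA was sequenced from cells sorted by flow cytometry out of healthy uteri of female cycling Pdgfrb-BAC-eGFP mice, in which a bacterial artificial chromosome places a green fluorescent protein under the control of Pdgfrb. The 6 Naive libraries hold GFPtotal cells, that is GFP-high perivascular cells together with GFP-low stromal fibroblasts. The 6 Stromal libraries hold the GFP-low cells alone, which the labels also call GFPdim. All groups share the reporter, the sex and the tissue. In the sources used here, no age of the mice, no stage of the cycle and no share of GFP-high cells in Naive is given. The study compared Naive with Stromal to infer the profile of the GFP-high cells, which were not sequenced alone. Fewer cells of a type and less RNA per cell cannot be told apart in such bulk samples.

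Emx2 is a homeodomain factor that mice need to form the urogenital tract, and Wt1, a zinc finger factor, is needed for kidney and gonad and marks the endometrial stroma. Nr2f2 (COUP-TFII) and its relative Nr2f1 (COUP-TFI) are orphan nuclear receptors, and in the mouse uterus stromal Nr2f2 acts downstream of epithelial hedgehog signalling and is needed for decidualization. Gata2 and Gata6 are zinc finger factors that bind GATA sequences, Gata6 being known from vascular smooth muscle, and Meis1 is a homeodomain cofactor of Hox proteins. Tcf21 is a basic helix-loop-helix factor of visceral mesenchyme, and Foxl2 is a forkhead factor of the ovary and of uterine mesenchyme.

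Total counts were 12631266 to 14950639 per Naive library and 14339804 to 18425596 per Stromal library. Mitochondrial genes took 45.3%, 45.9% and 49.0% of them in Naive 1, 2 and 6. In Naive 3, 4 and 5 they took 40.5%, 32.4% and 33.6%, and in Stromal 35.1% to 45.7%. Counts of all other genes were 6978218 to 9217537 in Naive and 8447077 to 10834905 in Stromal. The labels were checked against the pericyte marker Rgs5, which stood at 594 to 934 CPM (counts per 1000000 of the TMM-scaled library size) in Naive and at 0.904 to 10.9 CPM in Stromal. The file of Stromal 6 named in its header an alignment coded N8, a code of the Naive kind. That library had 10.9 CPM of Rgs5, the highest of the Stromal libraries. It lay with the other Stromal libraries on the first principal component (−62.1, against −64.6 to −31.1). On the same axis Naive 3, 4 and 5 stood apart at 102 to 107, against −3.82 to 6.66 for Naive 1, 2 and 6. Results are therefore also given without Naive 3, 4 and 5, and the effect of leaving out Stromal 6 or any other single library is stated where it matters. All 10 fibroblast markers were tested. By edgeR 1 was called higher (adjusted p below 0.05), by DESeq2 3 and by limma-voom 1, with 0 lower in each. Without Naive 3, 4 and 5 edgeR called 3 higher, and unadjusted 3 were higher with all libraries. Among all genes tested edgeR called 4.55% higher, DESeq2 7.13% and limma-voom 4.93%, and 12.8% were higher unadjusted. Without Naive 3, 4 and 5 edgeR called 245 of 15703 genes tested higher and 50 lower. The summed level of the 10 markers, mostly Col1a1 and Col3a1, was 20300 to 35700 CPM in Naive and 14100 to 22100 CPM in Stromal. Col6a3, Mfap5 and Pi16 had lower means in Naive than in Stromal, and the rest had higher means. For 10 pericyte markers the sum was 924 to 1630 CPM in Naive and 8.87 to 19.9 CPM in Stromal. The Naive sum was mostly Rgs5 and Abcc9, while Higd1b and Ndufa4l2 had only 32 and 64 counts over all Naive libraries. The sum moved with the groups beside every difference below, and the part of these markers in it was not tested.

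Of the 9 factor genes, Meis1 and Gata6 were higher in Naive than in Stromal cells, and their 2 groups of libraries did not overlap. Nr2f2, Nr2f1 and Tcf21 had positive log2 fold changes and Wt1 a negative one that did not pass the test, while the differences of Emx2 and Gata2 were smaller than the spread between libraries. Foxl2 had almost no counts in the exons used for counting. Foxl2 alone failed the filter on low counts, so 8 were tested, of which 2 were higher and 0 lower by edgeR's quasi-likelihood test (adjusted p below 0.05 over all genes tested). Among all 14523 genes tested, 5.41% were called, 4.55% higher and 0.854% lower. Without adjustment 4 of the 8 were higher and 1 lower, against 12.8% higher and 7.07% lower among all genes tested. DESeq2 called 3 higher and 0 lower, against 7.13% and 2.4% of its genes, and limma-voom called 2 higher and 0 lower, against 4.93% and 1.88%. Higher genes made up 84.2% of all calls, and 66.3% when libraries were scaled by their totals alone, which moved the median log2 fold change of all genes to −0.07. Groups that did not overlap were found for 3.66% of all genes tested, 2.86% with Naive above Stromal and 0.806% with Naive below.

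**Figure D1:**
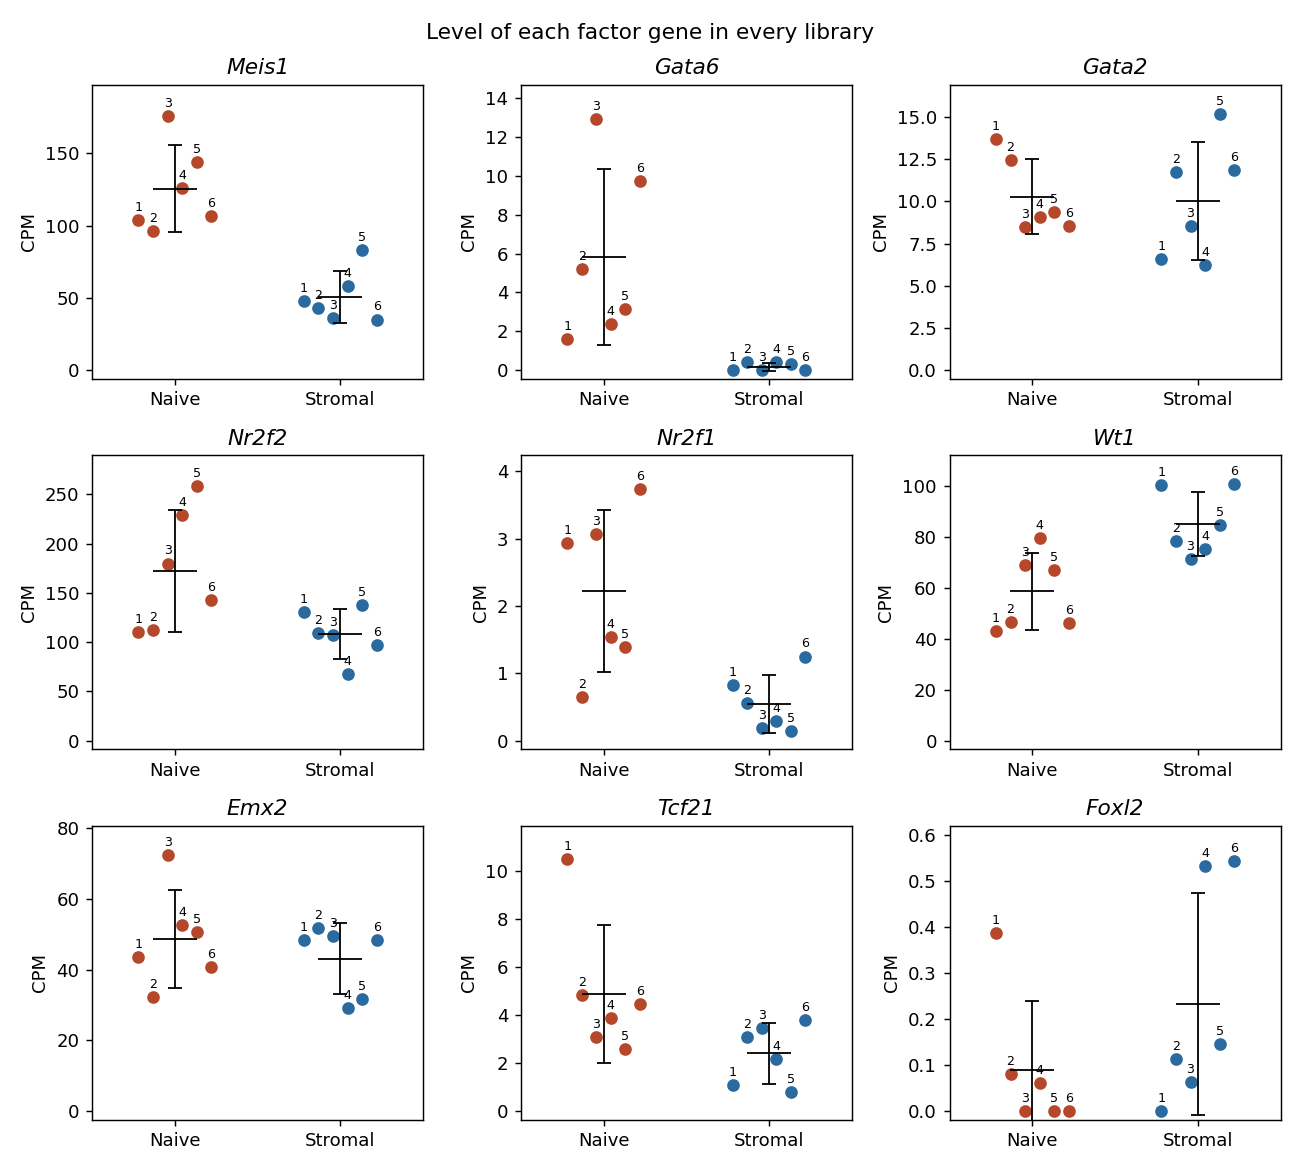
Level of each of the 9 genes in CPM (vertical axis from 0) in each Naive library (left, red) and each Stromal library (right, blue). Numbers are replicate numbers, the horizontal line is the mean and the bar the SD; Meis1 and Gata6 are the 2 panels in which the groups do not overlap.

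Meis1 (ENSMUSG00000020160) lies on the minus strand of chromosome 11, from 18879817 to 19018985 (GRCm38). Its lowest, median and highest level were 96.6, 116 and 176 CPM in Naive, against 35.0, 45.4 and 83.0 CPM in Stromal. Every Naive library lay above every Stromal library. The lowest Naive library was Naive 2 and the highest Stromal library Stromal 5. The means were 125.5 ± 30.0 CPM in Naive and 50.6 ± 18.0 CPM in Stromal (SD, n = 6 each). By edgeR the log2 fold change came to 1.31 with an SE of 0.22 (adjusted p = 0.00185). With Naive 3, 4 and 5 left out it was 1.00 (SE 0.24, adjusted p = 0.0364), and without any single library it was 1.16 to 1.51, with adjusted p of at most 0.00711.

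Sequences before the RefSeq start of the gene are shown for Meis1, which has more counts than Gata6, the other factor gene called, and for Nr2f2, which has the most counts of the 9. They are the 250 bases before that start on GRCm38.p6, 5′ to 3′ on the strand of the gene, chr11:19018970-19019219 (minus strand) and chr7:70366747-70366996 (minus strand). In the GENCODE annotation of GRCm38, 16 bases at the 3′ end of the Meis1 window and 0 of the Nr2f2 window lie within exons. Capitals mark the motifs found.
Meis1: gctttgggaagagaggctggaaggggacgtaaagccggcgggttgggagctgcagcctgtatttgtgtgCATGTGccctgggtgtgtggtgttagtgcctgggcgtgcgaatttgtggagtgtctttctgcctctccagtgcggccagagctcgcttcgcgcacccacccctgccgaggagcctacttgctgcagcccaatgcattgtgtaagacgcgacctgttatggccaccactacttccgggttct
Nr2f2: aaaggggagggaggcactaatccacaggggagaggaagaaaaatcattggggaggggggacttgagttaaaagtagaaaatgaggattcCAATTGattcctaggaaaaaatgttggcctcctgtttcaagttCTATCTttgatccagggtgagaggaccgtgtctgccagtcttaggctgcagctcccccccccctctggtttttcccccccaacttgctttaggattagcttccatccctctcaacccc
Both strands were searched for the MEIS core TGACAG, for GATA sites spelled AGATAA, or AGATAG, or else TGATAA, or TGATAG, for the nuclear receptor half-site AGGTCA and for the E-box CANNTG. The Meis1 window held an E-box (CATGTG) and the Nr2f2 window an E-box (CAATTG) and a GATA site (CTATCT, the reverse complement of AGATAG), with no overlap between matches. Of 32851 promoter windows of the same length, 15.9% held the MEIS core, 26.5% a GATA site, 14% the half-site and 66.2% an E-box. A match is a description of these letters and not a bound site.

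Gata6 (ENSMUSG00000005836; chromosome 18, 11052510 to 11085635, plus strand) was scarce and the most unequal of the 9. Its lowest, median and highest level were 1.62, 4.15 and 12.9 CPM in Naive, against 0, 0.146 and 0.413 CPM in Stromal. Naive 3 and 6 were the highest libraries and Naive 1 the lowest, and no Naive library reached down to the Stromal range. The counts behind these levels were 21 to 181 per Naive library and 0 to 7 per Stromal library. Stromal 1, 3 and 6 had 0 counts, which allows up to 0.190, 0.189 and 0.163 CPM (3 counts of the library). The antisense gene 1010001N08Rik, which shares 1.82% of the exonic bases of Gata6, had at most 1.14 CPM in Naive and 0.127 CPM in Stromal. Summed over libraries, 461 counts in Naive stood against 18 in Stromal, a ratio of CPM of 30.8 with an exact 95% interval of 19.3 to 52.5 that covers counting error only. By edgeR the log2 fold change came to 4.93 with an SE of 0.91 (adjusted p = 0.00364), and to 4.83 (adjusted p = 0.0216) without Naive 3, 4 and 5.

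Gata2 (ENSMUSG00000015053; chromosome 6, 88193891 to 88207032, plus strand), known in the mouse uterus as a regulator of the progesterone receptor gene, stood at 8.51, 9.23 and 13.7 CPM in Naive (lowest, median, highest) and at 6.26, 10.2 and 15.2 CPM in Stromal. The Naive range lay wholly within the Stromal one. Its log2 fold change of 0.03 (SE 0.29, adjusted p = 0.968) turned to −0.05 when libraries were scaled by their totals alone, and lay between −0.07 and 0.19 without a single library. Measured per length, as CPM per kilobase of exon (RPKM), Gata6 made up 16.7% to 72.0% of the Gata2 and Gata6 total in Naive and 0% to 10% in Stromal. The 2 genes share 0 exact stretches of 50 bases between their annotated transcripts.

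Nr2f2 (ENSMUSG00000030551; chromosome 7, 70351944 to 70366735, minus strand) had the most counts of the 9. Its levels were 110.1, 161 and 258.5 CPM in Naive and 67.2, 108 and 138 CPM in Stromal. Naive 3, 4 and 5, at 180, 229 and 258.5 CPM, lay above all Stromal libraries, while Naive 1 and 2 lay within the Stromal range and Naive 6, at 142.6 CPM, just above it. A log2 fold change of 0.67 with an SE of 0.23 was not called by edgeR (adjusted p = 0.102). Without Naive 3, 4 and 5 it was 0.15 (SE 0.20, adjusted p = 0.844).

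Of the exonic bases of Nr2f2, 7.46% are shared with the antisense gene B130024G19Rik, and the counting did not use strand, so reads of the shared stretch cannot be assigned to either. B130024G19Rik stood at 69.9, 161 and 274 CPM in Naive and at 56.0, 83.8 and 142 CPM in Stromal (log2 fold change 0.91, SE 0.31, adjusted p = 0.104). Its highest libraries were Naive 3, 4 and 5, as for Nr2f2.

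Nr2f1 (ENSMUSG00000069171; chromosome 13, 78188973 to 78199757, minus strand) was scarce, at 0.648, 2.24 and 3.74 CPM in Naive and 0.146, 0.430 and 1.25 CPM in Stromal. Naive 2 lay within the Stromal range and the other 5 Naive libraries above it. Its difference of 2.00 on the log2 scale (SE 0.67, adjusted p = 0.0962) was not called by edgeR and was called by DESeq2 (2.01, adjusted p = 0.0328), on 177 counts in Naive and 56 in Stromal. Nr2f1 made up 0.971% to 4.62% of the Nr2f1 and Nr2f2 total in RPKM in Naive and 0.191% to 2.28% in Stromal. The annotated transcripts of these relatives share 10 exact stretches of 50 bases. The antisense gene A830082K12Rik shares 2.59% of the exonic bases of Nr2f1 and had far more counts, at 8.58, 13.7 and 22.4 CPM in Naive and 3.65, 12.2 and 42.9 CPM in Stromal (log2 fold change −0.17, adjusted p = 0.888, edgeR), and without strand the reads of the shared stretch cannot be assigned to either.

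**Figure D2:**
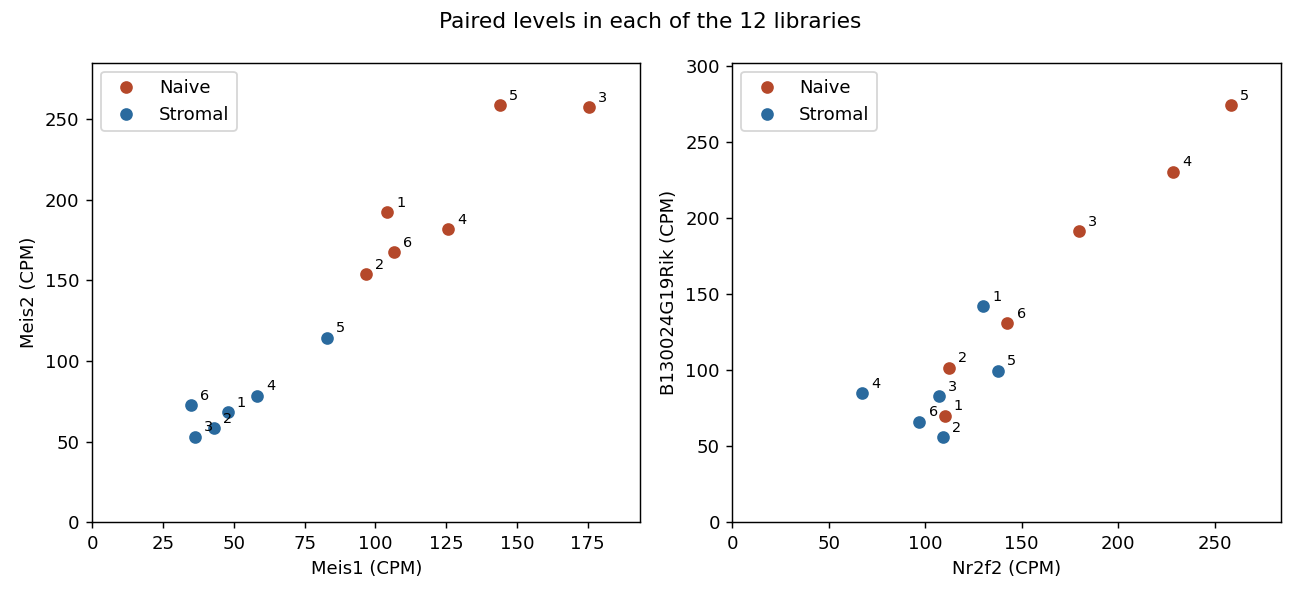
Levels of Meis1 and Meis2 (left) and of Nr2f2 and its antisense gene B130024G19Rik (right) in CPM, a point per library with its replicate number, Naive in red and Stromal in blue. On the left the Naive points all lie above and to the right of the Stromal points; on the right only Naive 3, 4 and 5 do.

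Wt1 (ENSMUSG00000016458; chromosome 2, 105126529 to 105173616, plus strand) was the one tested factor gene with a negative log2 fold change. Its levels were 43.2, 57.0 and 79.5 CPM in Naive and 71.6, 81.6 and 100.9 CPM in Stromal. Of the Naive libraries 5 lay below every Stromal library, and Naive 4 lay within the Stromal range. With a log2 fold change of −0.54 and an SE of 0.18 it did not pass edgeR’s test (adjusted p = 0.0992). Naive 1, 2 and 6 had 43.2, 46.8 and 46.2 CPM and Naive 3, 4 and 5 had 68.8, 79.5 and 67.1 CPM. With the last 3 left out the log2 fold change was −0.93 (SE 0.18, adjusted p = 0.0106), so that the call on Wt1 depends on whether those libraries are included. Wt1 also marks mesothelium, the lining of the outer uterine wall. Of 8 mesothelium markers 5 stayed under 1 CPM in every library, the defining markers Msln and Upk3b had 0 counts in all, and the summed level, mostly Rspo1, was 5.59 to 18.6 CPM in Naive and 8.53 to 23.0 CPM in Stromal.

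Emx2 (ENSMUSG00000043969; chromosome 19, 59458372 to 59465357, plus strand) stood at 32.2, 47.0 and 72.5 CPM in Naive and at 29.1, 48.4 and 51.9 CPM in Stromal. Only Naive 3 and 4 exceeded the highest Stromal library. The log2 fold change was 0.17 (SE 0.22, adjusted p = 0.717), and it was −0.01 without Naive 3 alone and −0.17 (SE 0.23, adjusted p = 0.850) without Naive 3, 4 and 5. Its antisense gene Emx2os shares 8.79% of the exonic bases of Emx2 and stood at 96.8, 115 and 194 CPM in Naive and 64.95, 101.5 and 117 CPM in Stromal (log2 fold change 0.37, adjusted p = 0.276).

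Tcf21 (ENSMUSG00000045680; chromosome 10, 22817279 to 22820128, minus strand) had 2.60, 4.16 and 10.5 CPM in Naive and 0.801, 2.65 and 3.80 CPM in Stromal. Naive 1 lay far above the other 11 libraries, Naive 2, 4 and 6 above all Stromal libraries, and Naive 3 and 5 within their range. The difference of 1.02 on the log2 scale (SE 0.49, adjusted p = 0.264, edgeR) was 0.64 without Naive 1. Foxl2 (ENSMUSG00000050397; chromosome 9, 98955607 to 98956847, plus strand) had 7 counts over the 6 Naive libraries and 24 over the 6 Stromal libraries. The exons used for counting hold 1241 bases of Foxl2, while its GENCODE transcripts hold 3207 distinct stretches of 50 bases. Transcript sequence outside the counted exons was therefore not measured. Naive 3, 5 and 6 and Stromal 1 had 0 counts, which allows up to 0.267 CPM, and the highest library was Stromal 6 with 10 counts (0.543 CPM). The ratio of summed CPM was 0.351, with an exact 95% interval of 0.128 to 0.840 that covers counting error only and not the spread between libraries. An exact two-sided permutation test over 924 assignments of the libraries gave p = 0.208 for the CPM of Foxl2, where the smallest possible p is 0.00216. Of the ovarian granulosa markers, Nr5a2 had 0 counts, Cyp19a1 1 count in all and Amh 7 counts, all in Stromal 5. Fshr had 21 counts, all in Naive 3, and Hsd17b1 had 16 counts in Naive and 14 in Stromal. Inha was detected in every library, with 67 counts in Naive and 146 in Stromal. The sum of all 7 such markers, mostly Inhba, was 23.4 to 74.1 CPM in Naive and 28.0 to 84.9 CPM in Stromal.

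Per length, the order of the genes differed between the groups. In Naive it was Nr2f2 (19.9 ± 7.15 RPKM, SD, n = 6), Emx2 (16.2 ± 4.58), Meis1 (11.9 ± 2.85), Wt1 (9.46 ± 2.44), Tcf21 (4.00 ± 2.36), Gata2 (1.90 ± 0.413), Gata6 (1.83 ± 1.42), Nr2f1 (0.468 ± 0.252) and Foxl2 (0.0711 ± 0.121). In Stromal Emx2 had the highest mean (14.4 ± 3.34 RPKM), followed by Wt1 (13.8 ± 2.05), Nr2f2 (12.5 ± 2.92), Meis1 (4.80 ± 1.71), Tcf21 (1.97 ± 1.03), Gata2 (1.86 ± 0.650), Foxl2 (0.187 ± 0.194), Nr2f1 (0.115 ± 0.0904) and Gata6 (0.0574 ± 0.0642). In Naive the ranges of all neighbours in this order overlapped. Within libraries, Emx2 lay above Meis1, Tcf21 above Gata2 and Nr2f1 above Foxl2 in 6 of 6, and the other neighbours kept their order in 4 or 5 of 6. In Stromal the ranges did not overlap between Meis1 and Tcf21 and between Gata2 and Foxl2, and those of all other neighbours did. Nr2f2 lay above Meis1 in 6 of 6 Stromal libraries, but Emx2 lay above Wt1 in only 2 of 6 and Nr2f1 above Gata6 in 3 of 6. The order of Foxl2, Nr2f1 and Gata6 in Stromal rests on 24, 56 and 18 counts. The counted exons of Foxl2, Gata6 and Tcf21 hold 1241, 3194 and 1223 bases. Their GENCODE transcripts hold 3207, 6449 and 2300 distinct stretches of 50 bases, so the places of these genes apply to the counted exons only. By the means, Wt1 stood below Meis1 and Nr2f2 in Naive and above both in Stromal.

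**Figure D3:**
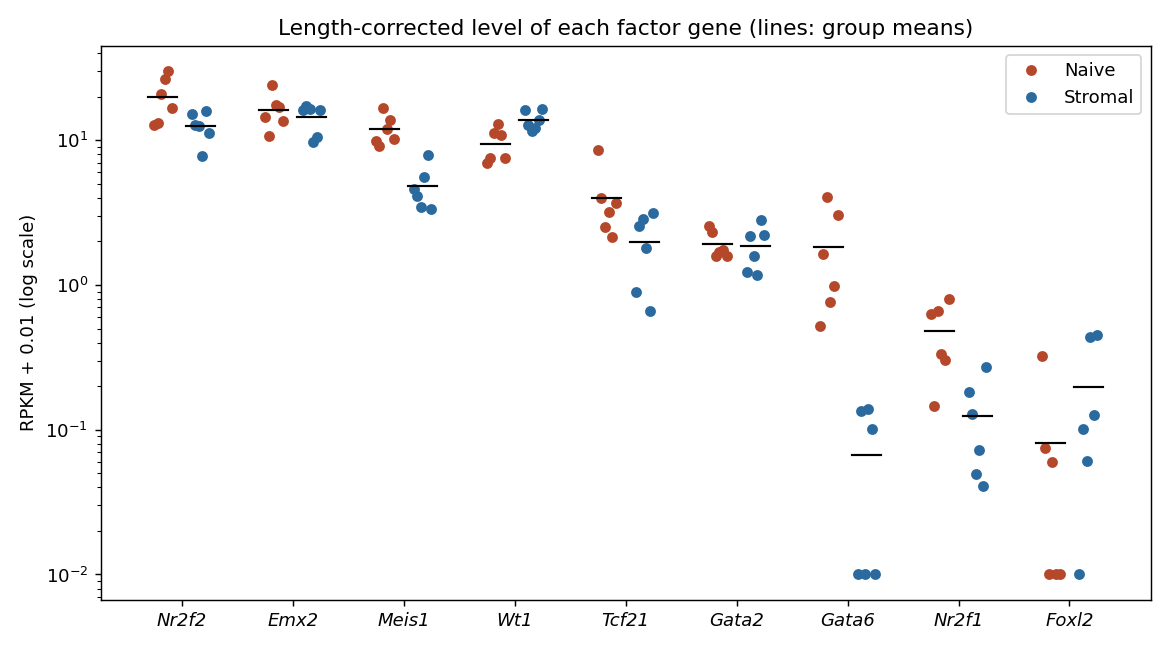
Level of each gene per length, as RPKM + 0.01 on a log axis, for each Naive library (red, left of each pair) and each Stromal library (blue), in the order of the Naive means (black lines are group means). Gata6 shows the widest gap between the groups, with 3 Stromal libraries at 0 counts (drawn at 0.01).

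Meis2, the close relative of Meis1 on another chromosome, had 154, 187 and 258.5 CPM in Naive and 53.1, 70.3 and 114 CPM in Stromal, with no overlap between the groups (log2 fold change 1.45, SE 0.20, adjusted p = 0.000376, edgeR). Leaving out Naive 3, 4 and 5 gave 1.19 (adjusted p = 0.00438). Meis1 made up 38.3% to 44.2% of the Meis1 and Meis2 total in RPKM in Naive and 35.6% to 45.9% in Stromal. Among 7262 genes with a mean log2 CPM no lower than 3, the one whose profile over the 12 libraries lay nearest to that of Meis1 was Meis2, at a root mean square difference of 0.189 in log2 CPM after centring, followed by Map3k20 at 0.258. This pair was picked out after its values were seen. The transcripts of Meis1 and Meis2 share 0 exact stretches of 50 bases. Other genes hold 1843 of the 10853 stretches of 50 bases in Meis1, 981 of them in Gm37818, which shares 9.77% of the exonic bases of Meis1 on the same strand and had 2.11 to 11.4 CPM in Naive and 1.13 to 5.75 CPM in Stromal. The antisense gene Gm16140 shares 8.51% of them and had 0.267 to 1.597 CPM in Naive and 0.252 to 2.55 CPM in Stromal.

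Among 15 relatives of the 9 genes, 4 were tested, 1 (Meis2) was higher and 0 were lower by edgeR, with a median log2 fold change of 0.02 against −0.000599 over all genes tested. For this list and the following ones, the edgeR shares over all genes tested are 4.55% higher and 0.854% lower. Without adjustment 1 was higher and 0 lower, as with DESeq2 and limma-voom. The GATA relative Gata4 had 0 counts in every library. Of 11 partner proteins 9 were tested and 1 was higher and 0 lower (median −0.02; unadjusted 1 higher and 2 lower; 1 and 0 with DESeq2 and with limma-voom). The member called was Zfpm2 (FOG2, a cofactor of GATA factors), at 2.67, 9.10 and 11.5 CPM in Naive and 0, 0.396 and 2.91 CPM in Stromal. Its change of 3.42 in log2 units passed the test (SE 0.90, adjusted p = 0.0367), and only Stromal 5 overlapped with Naive. Without Stromal 5 it was 4.59 (adjusted p = 0.00575). Leaving out Naive 1, 3, 4, 5 or 6 or Stromal 1, 3 or 6 alone, or Naive 3, 4 and 5 together, or using no filter on low counts, ended the call (adjusted p of 0.0535 to 0.122).

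Of 24 other factor genes of the duct and of mesenchyme 12 were tested, with 1 higher and 0 lower (median 0.07; unadjusted 1 and 1; DESeq2 1 and 0; limma-voom 0 and 0). Twist1, a basic helix-loop-helix factor of mesenchyme, had 2.58, 5.67 and 7.93 CPM in Naive and 0.946, 1.92 and 2.09 CPM in Stromal (log2 fold change 1.64, SE 0.43, adjusted p = 0.0341). The groups did not overlap, but the call held in only 5 of 20 alternative settings, and without Naive 3, 4 and 5 the adjusted p was 0.195. A further list held 15 genes of signalling that Nr2f2 and Gata2 act with in the uterus. Of its 12 tested genes 0 were higher and 2 lower (median −0.32; unadjusted 1 and 5; DESeq2 0 and 2; limma-voom 0 and 1). The ligand gene Wnt4, required for the Müllerian duct in mice, stood at 1.93, 4.34 and 6.96 CPM in Naive and 8.01, 10.8 and 32.1 CPM in Stromal (−1.74, SE 0.41, adjusted p = 0.0181). The hedgehog target gene Gli1 had 1.596, 1.90 and 5.49 CPM in Naive and 3.86, 6.38 and 20.7 CPM in Stromal, with overlap (−1.79 on the log2 scale, SE 0.47, adjusted p = 0.0349). Both Wnt4 and Gli1 were highest in Stromal 1. Without that library edgeR still called Wnt4 (−1.34, adjusted p = 0.0470) but not Gli1 (−1.37, adjusted p = 0.0963). Ptch1, also on this list, stood at 443 CPM in Stromal 1, against 24.8 to 64.5 CPM in the other Stromal libraries, as seen after its values were examined. Without Naive 3, 4 and 5 neither Wnt4 (−1.36, adjusted p = 0.199) nor Gli1 (−1.39, adjusted p = 0.311) was called. Gli1 also lost its call without Naive 3, 4, 5 or 6 or Stromal 1, 2 or 3 alone and with limma-voom. Ihh, the epithelial hedgehog ligand gene, and Amhr2, the receptor gene for anti-Müllerian hormone, stayed at or under 0.226 CPM in every library.

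**Figure D4:**
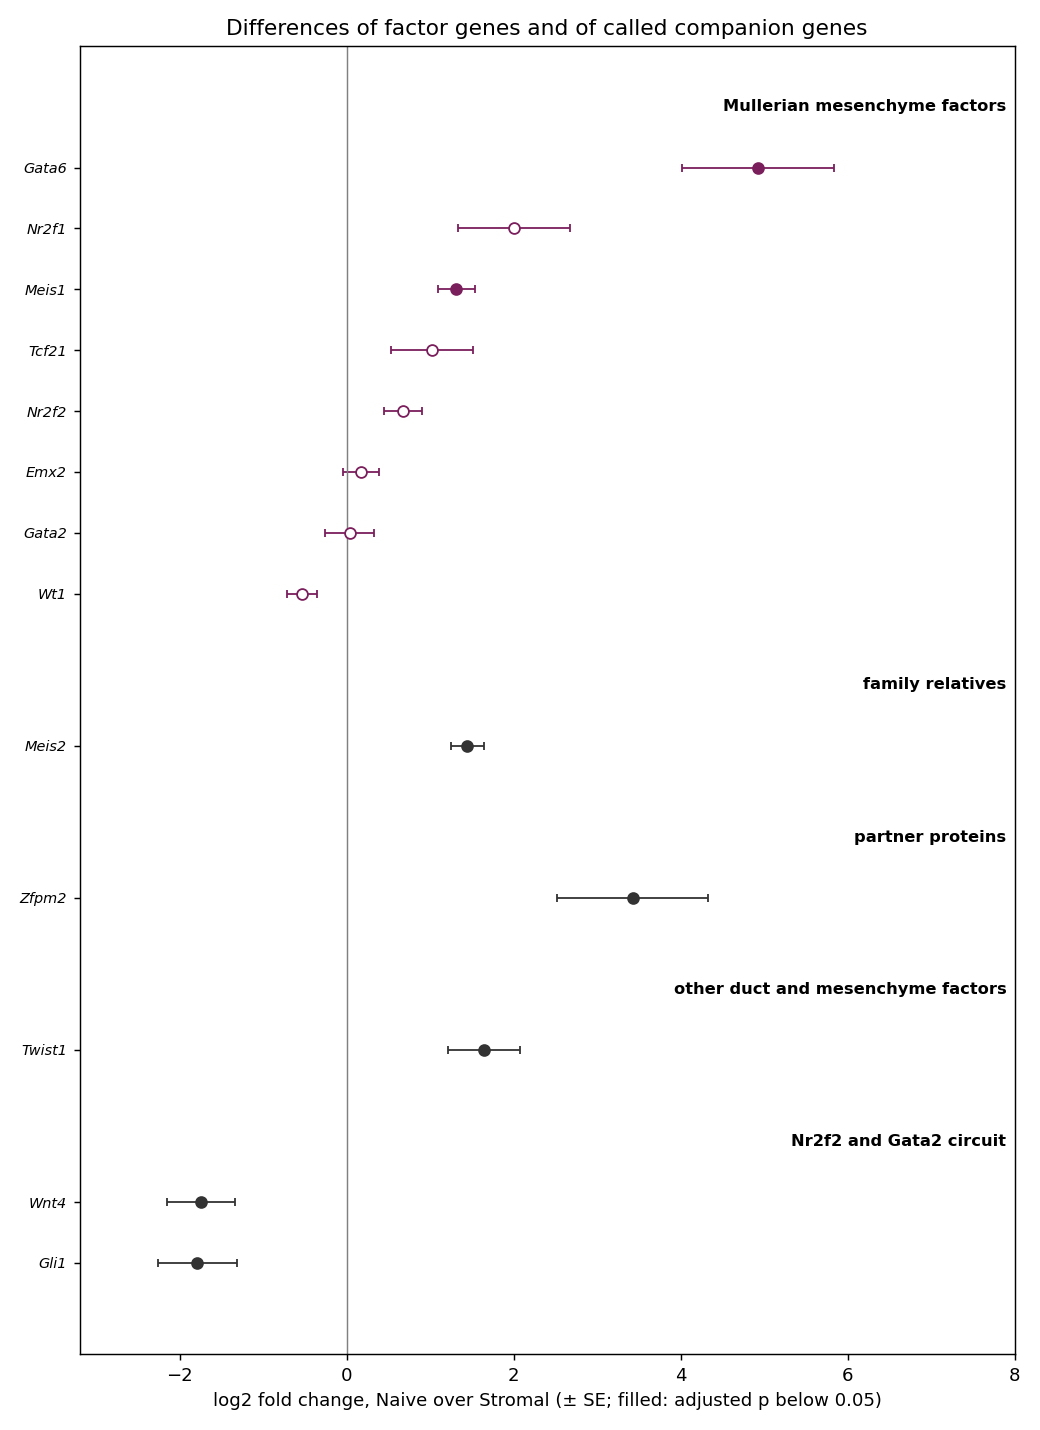
Log2 fold change, Naive over Stromal, with its SE for the 8 tested factor genes (purple) and for the genes of 4 companion lists that passed the test (black); filled points passed an adjusted p of 0.05, and companion genes that did not are not drawn. Gata6, Zfpm2, Twist1, Meis2 and Meis1 lie to the right with filled points, and Wnt4 and Gli1 to the left.

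The nearest profiles were also read for the 3 factor genes that varied most over the 12 libraries, by the same root mean square difference of centred log2 CPM. For Gata6 (SD 2.41) they were Gucy1a1, which encodes part of soluble guanylate cyclase and is on the pericyte list, at 0.947 and the calcium channel gene Cacnb2 at 1.02. Cacnb2 had 36.6 to 85.5 CPM in Naive and 1.95 to 9.03 CPM in Stromal. For Nr2f1 (SD 1.29) they were Dhtkd1 at 0.699 and Rnd3 at 0.751, and for Tcf21 (SD 0.920) Itpripl2 at 0.489 and Ern1 at 0.501. Such distances are over 12 libraries that share the group difference, and they describe these libraries only.

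**Figure D5:**
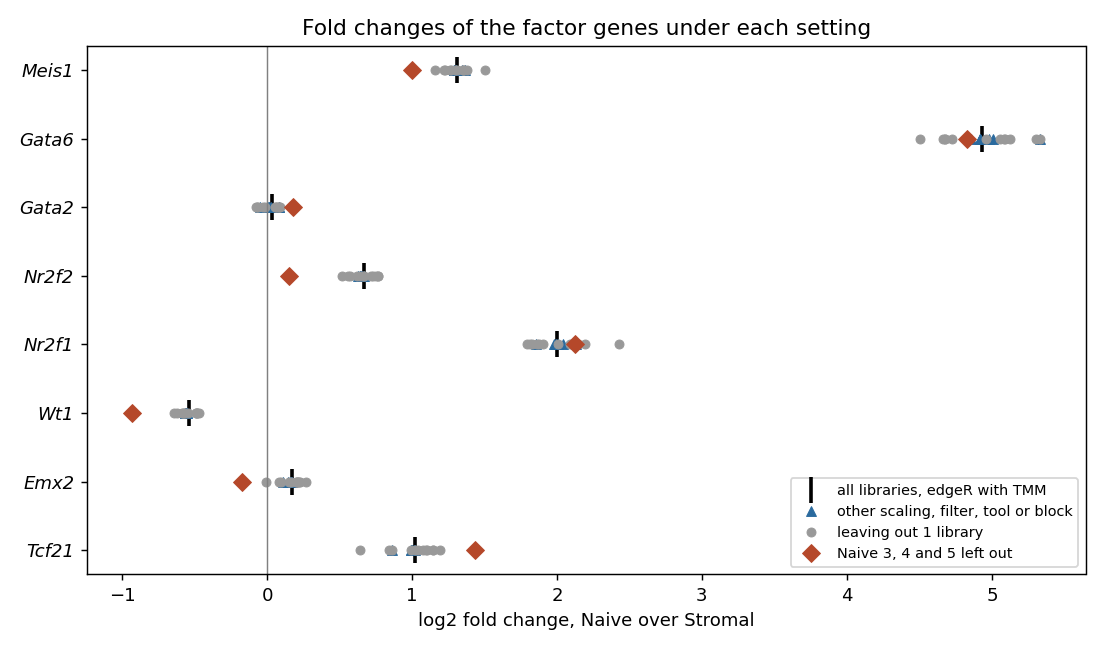
Log2 fold change, Naive over Stromal, of the 8 tested factor genes with all libraries (black line), without each library in turn (grey), without Naive 3, 4 and 5 (red diamond) and with other scaling, filter, tool or block (blue). Meis1, Gata6, Nr2f1, Nr2f2 and Tcf21 stay above 0 throughout and Wt1 below it, while Emx2 and Gata2 cross 0. The red diamonds of Nr2f2 (0.15), Wt1 (−0.93), Emx2 (−0.17), Meis1 (1.00) and Tcf21 (1.43) lie outside the range of their other settings.

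Other cell types were checked by their markers. Summed endothelial markers stood at 33.8 to 60.1 CPM in Naive and 39.6 to 59.6 CPM in Stromal, with Cldn5 at 0 counts. Single markers in this sum went in opposite directions. Pecam1, Esam and Erg had 66, 144 and 44 counts in Naive and 17, 14 and 10 in Stromal. Kdr averaged 11.2 CPM in Naive and 20.8 CPM in Stromal, and Egfl7 had 9 counts in Naive and 18 in Stromal. Of 4 endothelial markers tested 0 were called higher and 1 lower by edgeR (Cdh5, −1.67 on the log2 scale, adjusted p = 0.0374), and unadjusted 2 were higher and 1 lower. DESeq2 called 1 higher and 1 lower and limma-voom 1 higher and 0 lower, and without Naive 3, 4 and 5 edgeR called 0 in either direction. Emcn averaged 14.3 CPM in Naive and 4.39 CPM in Stromal (adjusted p = 0.0562, edgeR) and Tek 11.4 CPM in Naive and 5.53 CPM in Stromal (adjusted p = 0.209, edgeR). No leukocyte marker passed the filter, and of the epithelial, mast cell, erythroid, mesothelium and granulosa markers tested 0 were called by edgeR, DESeq2 or limma-voom and 0 had an unadjusted p below 0.05. Epithelial sums were 6.68 to 41.2 CPM in Naive and 8.03 to 34.5 CPM in Stromal. The highest of each group, in Naive 4 and Stromal 5, were mostly Prom1 (28.05 and 26.56 CPM). Leukocyte sums were at most 3.00 CPM in Naive and 3.93 CPM in Stromal. Mast cell sums of 9.22 to 83.7 CPM in Naive and 21.1 to 70.1 CPM in Stromal were nearly all Kit except in Naive 5, with 4 of 8 markers at 0 counts. In Naive 5 Cpa3 had 4.06 CPM (61 counts) beside 21.6 CPM of Kit. Erythroid sums of 8.59 to 15.8 CPM in Naive and 6.46 to 15.8 CPM in Stromal were all Alas2, with 6 of 7 at 0 counts. Of 8 smooth muscle markers tested, Acta2, Myh11 and Actg2 were called higher and 0 lower by edgeR, against 4.55% and 0.854% of all genes tested. DESeq2 called 4 higher and limma-voom 3, and edgeR called 3 without Naive 3, 4 and 5, with 0 lower in each. Unadjusted 4 were higher and 0 lower. Over all genes, 7.13% were higher with DESeq2, 4.93% with limma-voom and 12.8% unadjusted. Without Naive 3, 4 and 5 edgeR called 245 of 15703 genes higher. Smtn averaged 22.5 CPM in Naive and 27.6 CPM in Stromal and Synpo2 299 CPM in Naive and 294 CPM in Stromal. The whole list summed to 660 to 1060 CPM in Naive and 442 to 683 CPM in Stromal, with overlap. The part of Acta2, Myh11 and Actg2 in the differences of Gata6 and Meis1 was not tested.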

How the data were processed

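RNA sequencing libraries of 6 Naive and 6 Stromal samples were analysed. Per the file headers, the authors made raw counts per gene with featureCounts 1.6.4 from paired-end fragments over exons of Ensembl release 84 on GRCm38, with a mapping quality of at least 10 and without strand. The submitters' processing notes also list cutadapt and SAMtools. No aligner is named in the sources used here. For 12 of 12 libraries the deposited series table matched the file of that library count for count. Symbols were matched by Ensembl identifier for 47224 of 47729 genes, and exon lengths are those deposited in the files.

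From the counts, edgeR 4.0.16 (R 4.3.3) kept genes by filterByExpr, scaled by TMM and ran its robust quasi-likelihood test, Naive minus Stromal, with no covariate. P-values are two-sided and adjusted by Benjamini-Hochberg over all 14523 genes tested, with a threshold of 0.05. Log2 CPM used a prior count of 2, and RPKM divide CPM by exon length. DESeq2 1.42.0 and limma-voom (limma 3.58.1), other scalings, no filter, mitochondrial genes left out, left-out libraries and a replicate block were alternatives. Labels share replicate numbers between groups, but the correlation of deviations of same-numbered libraries was −0.139 to 0.0892. The numbers were not taken as pairs, though these correlations do not exclude a pairing. No label ties a library to an animal, and the spread behind the p-values is that between libraries, which may be technical.

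The 9 genes and all lists were chosen with earlier results of these data known. Named genes are the 9, up to 4 called genes of each companion list by size of change, genes sharing exonic bases with the 9, and the 2 nearest profiles of the 3 most variable; others were named after their values were seen. Promoter entries from RefSeq were found for 7 of 9 genes, and the GATA and E-box motifs were widened after a first narrower search. Some companion genes are counted in their lists and not reported here by name.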

Additional observations from a re-analysis of the deposited data

Results flagged for a closer look

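Among 28 sets of 6 libraries examined (14 genes in 2 groups), 4 held a library whose gap to its nearest neighbour exceeded 0.625 of the range of the set. Chance flags about 1 in 20 sets of normally distributed values. That rate need not hold for CPM, least of all for a gene with as few counts as Foxl2. Tcf21 stood at 10.5 CPM in Naive 1, against 2.59 to 4.86 CPM in the other Naive libraries. Foxl2 stood at 0.387 CPM in Naive 1, which is 5 counts, against 0 to 0.0810 CPM in the others. Zfpm2 stood at 2.91 CPM in Stromal 5, against 0 to 0.885 CPM in the other Stromal libraries. Wnt4 stood at 32.1 CPM in Stromal 1, against 8.0 to 16.6 CPM in the others.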

How the results depend on the processing

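Meis1, Gata6 and Meis2 kept their direction and their call under all 20 alternatives, with log2 fold changes of 1.00 to 1.51, 4.51 to 5.33 and 1.19 to 1.61. The number of factor genes called higher was 2 in every alternative but DESeq2, where it was 3, and the number called lower was 0 except without Naive 3, 4 and 5, where it was 1 (Wt1). The number of all genes called, 785, was 1381 with DESeq2, 295 without Naive 3, 4 and 5, of which 234 were among the 785, and 467 to 970 without a single library, lowest without Naive 3 and 521 without Naive 4. The 295 calls without Naive 3, 4 and 5 were 245 higher and 50 lower of 15703 genes tested. The replicate block gave 582 calls and ended that of Twist1 (adjusted p = 0.114). Only 2 of 6 Naive libraries correlated best with the Stromal library of their own number. No label ties a library to an animal, so such correlations cannot settle whether same-numbered libraries are pairs. The direction of Gata2 was negative when libraries were scaled by their totals alone (−0.0453), and −0.073 to 0.19 without a single library. That of Emx2 was −0.17 without Naive 3, 4 and 5, and −0.0058 to 0.27 without a single library. Among the other called genes, Zfpm2 was called in 10, Twist1 in 5, Gli1 in 11 and Wnt4 in 19 of the 20 alternatives, without a change of direction. The causes were not tested. Foxl2 was tested only without the low-count filter (−1.34, adjusted p = 0.614, on 31 counts in all), and such low counts limit what can be said of it.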

Other observations

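Tcf23, a relative of Tcf21 that is known from mouse reproductive tissues, failed the filter on low counts and varied widely within Naive, as seen after its values were examined. It stood at 20.7, 28.7 and 6.65 CPM in Naive 3, 4 and 5, at 0.155, 1.70 and 0.445 CPM in Naive 1, 2 and 6, and at 0.0565 to 2.26 CPM in Stromal. Kit, which encodes the receptor of stem cell factor, ran the other way in Naive. It stood at 8.93, 20.9 and 21.6 CPM in Naive 3, 4 and 5 and at 83.7, 78.9 and 75.6 CPM in Naive 1, 2 and 6, against 20.8 to 70.0 CPM in Stromal, and its log2 fold change was 0.00 (adjusted p = 0.997).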
